A study of Homo sapiens with 12 samples.

Results

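Histone genes were followed in LX2, a human line of hepatic stellate cells long kept in culture, in RNA purified by its poly(A) tail. The members were the protein-coding rows of the deposited expression table whose names are those of histones H1, H2A, H2B, H3 and H4, which gave 79 of 60612 genes. They fall into 67 replication-dependent genes, those of the clusters on chromosome 6 (55 genes) and chromosome 1 (12 genes), and 12 genes with the names of variant or replacement histones. The 12 libraries form 3 groups of 4. In the first, cells were given 10 µM of the compound labelled STINGX for 3 h and then 5 ng/ml TGFb (transforming growth factor beta, a cytokine that drives stellate cells toward a matrix-producing state) for 16 h. In the second, cells were given TGFb alone, and in the third they were left untreated (control). All were wild type cells, seeded for 24 h and then kept without serum for 16 h before stimulation. The series is titled for mitochondrial DNA and the STING pathway in stellate cell activation. The labels do not say whether replicates were separate cultures, so every p-value measures the spread between these libraries only. Cells given STINGX alone were not analysed here.

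Histone proteins package DNA: an octamer of H2A, H2B, H3 and H4 forms the core of a nucleosome, and H1 binds the DNA where it enters and leaves. Replication-dependent histone genes are transcribed mainly in S phase, when DNA is copied. Their messenger RNAs normally end, without a poly(A) tail, just after a short hairpin (the stem-loop) that is bound by SLBP, the stem-loop binding protein. Variant histone genes such as H3-3A and H2AZ1 are transcribed through the cell cycle, usually have introns or stand alone, and give ordinary polyadenylated messages. The libraries were made from RNA purified on oligo(dT) beads, so for the replication-dependent genes they hold the RNA that such a purification keeps. RNAs that have no tail of their own were counted too, as given below. How much of the replication-dependent RNA was the stem-loop form was not tested. In bulk RNA, fewer cells of a kind and less RNA per cell cannot be told apart.

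The stem-loop sequences of 6 replication-dependent genes and of the variant gene H2AX are given because the transcript results below turn on where the annotated RNA ends relative to them. Each is a window of 30 bases of the GENCODE 29 transcript, 5′ to 3′, with the 16 bases of the stem-loop in capitals, on GRCh38. The H2AC6 and H2BC21 models run 1128 and 1729 bases beyond it and carry the form that was commonest among the members, found in 15 genes, H2BC5 carries a form found in 5 and H4C8 a form found in 3.
H2AC6, chr6:26124663-26124692, plus strand: cccaaaGGCTCTTTTCAGAGCCcccctacc
H2BC21, chr1:149886180-149886209, minus strand: tccaaaGGCTCTTTTCAGAGCCacccacct
H2BC5, chr6:26158581-26158610, plus strand: cccaaaGGCTCTTTTAAGAGCCacgcatgt
H4C8, chr6:26285123-26285152, minus strand: accaaaGGCCCTTTTCAGGGCCgcccactt
H2AC11, chr6:27133509-27133538, plus strand: accaacGGCTCTTTTCAGGGCCacccacgt
H3C6, chr6:26225590-26225619, plus strand: tccaaaGGCTCTTCTCAGAGCCaaccactt
H2AX, chr11:119094890-119094919, minus strand: cacaaaGGCCCTTTTAAGGGCCaccaccgc

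A search of both strands for the 16 bases in capitals of H2AC6, with up to 2 mismatches, found them on the transcribed strand of 0.205% of 83064 protein-coding GENCODE 29 transcripts, and of 0.17% of those that belong to no member. On the opposite strand 0.146% of all transcripts held them. The H2AX stem-loop has 3 mismatches and was found only with a looser search added later, under which 1.48% of all transcripts matched. On the opposite strand 1.67% did, so a match in the looser search is not specific by itself. H2AX is known to give both a stem-loop message and a polyadenylated one. For 33 of the 67 replication-dependent genes, H2BC12 and H1-2 among them, the GENCODE 29 model holds the coding part alone, so no stem-loop could be looked for. The deposited gene spans match GENCODE 29 in 33 of the 77 members found there. That of H2BC12 is 27146361-27146855, against 27146418-27146798 in GENCODE 29. The model that was counted may thus reach further than the one searched. Each gene was classed by its most counted model. That model ended within 100 bases of the stem-loop in 8 genes, ran further beyond it in 16 and held no match in 10. Among those 10, H2BC4 and H2BC5 hold the stem-loop on another model, and H4C9, H4C14 and H4C15 matched only in the looser search.

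Promoters of 71 members were found in RefSeq (GRCh38.p14). Those of H2BC12 and H2BC21, which are among the 4 most counted replication-dependent genes and were lower in each treatment step, are given as the 250 bases before the annotated start, 5′ to 3′. Capitals mark the box CCAAT, the box TATAAA and the octamer motif ATTTGCAT on either strand, and adjoining or overlapping matches run together.
H2BC12, chr6:27146859-27147108, minus strand: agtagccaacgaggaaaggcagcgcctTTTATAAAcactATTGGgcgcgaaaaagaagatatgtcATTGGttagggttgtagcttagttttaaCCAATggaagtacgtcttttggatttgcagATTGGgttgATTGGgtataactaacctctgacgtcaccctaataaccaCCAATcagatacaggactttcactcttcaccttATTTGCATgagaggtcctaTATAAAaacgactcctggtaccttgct
H2BC21, chr1:149886683-149886932, minus strand: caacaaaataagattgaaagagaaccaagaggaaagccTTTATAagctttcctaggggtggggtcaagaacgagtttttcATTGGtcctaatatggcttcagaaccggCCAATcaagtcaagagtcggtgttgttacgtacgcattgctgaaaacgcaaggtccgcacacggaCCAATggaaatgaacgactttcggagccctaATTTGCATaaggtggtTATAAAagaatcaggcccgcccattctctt

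CCAAT, which the factor NF-Y binds, was found in 53 of 62 replication-dependent promoters and 8 of 9 variant promoters, against 32% of 35116 promoters of the same length. It was in every H1, H2A, H2B and H3 promoter of the clusters and in 3 of 12 H4 promoters. TATAAA was found in 42 of 62 replication-dependent and 4 of 9 variant promoters, against 10.7% of all. The octamer, a site for POU factors that was added to the search after seeing the data, stood in 14 of 17 H2B and 11 of 15 H2A promoters of the clusters, in 1 variant promoter and in 1.63% of all promoters. These matches are letters in a window and were not tied to any result here.

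Library totals ran from 54035320 to 70787741 counts, at which 1 count is 0.0135 to 0.0192 CPM (counts relative to the TMM-scaled library total, in the usual RNA-seq unit). LX2 identity was checked on 15 stellate markers, of which 13 were tested: 7 rose and 4 fell with TGFb, and 1 rose and 9 fell with STINGX and TGFb against TGFb. COL1A1, the main collagen chain, averaged 1644 ± 15.2, 6367 ± 121 and 2307 ± 16.4 CPM (SD, n = 4 each) in cells given STINGX and TGFb, TGFb and control cells, COL3A1 averaged 183 ± 5.39, 351 ± 5.37 and 584 ± 15.2 CPM in the same order, and DES and LRAT were at 0 in all libraries. Of the hepatocyte markers ALB, APOB, TTR and FGB were at 0, and the 9 summed to between 3.84 and 10.5 CPM in any library. The 7 macrophage and leukocyte markers summed to between 74.6 and 89.9 CPM in cells given STINGX and TGFb, between 30.03 and 35.3 CPM in cells given TGFb and between 72.8 and 80.6 CPM in control cells, with CD3E and MS4A1 at 0. Most of this was CD68, at 68.8 to 84.2 CPM with STINGX and TGFb, 21.5 to 27.1 CPM with TGFb and 56.9 to 61 CPM in control cells, while CD14 was at 1.72 to 2.79, 1.79 to 2.96 and 13.4 to 18.5 CPM. Their part in the histone results was not tested. Control replicates 1 and 2 stood apart from the other 10 libraries in RNAs that have no poly(A) tail of their own (RN7SK, the RN7SL genes, RNase P RNA and small nuclear and nucleolar RNAs). The 27 such RNAs summed to between 13.6 and 30.8 CPM in the 8 treated libraries, and to 76.7, 81.5, 35.6 and 36.2 CPM in control replicates 1 to 4. The counts of histone genes called against control are therefore also given with control replicates 3 and 4 alone, a choice made after seeing the data, as are the named genes of the related lists whose call with TGFb was then lost, with their adjusted p.

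**Figure D1:**
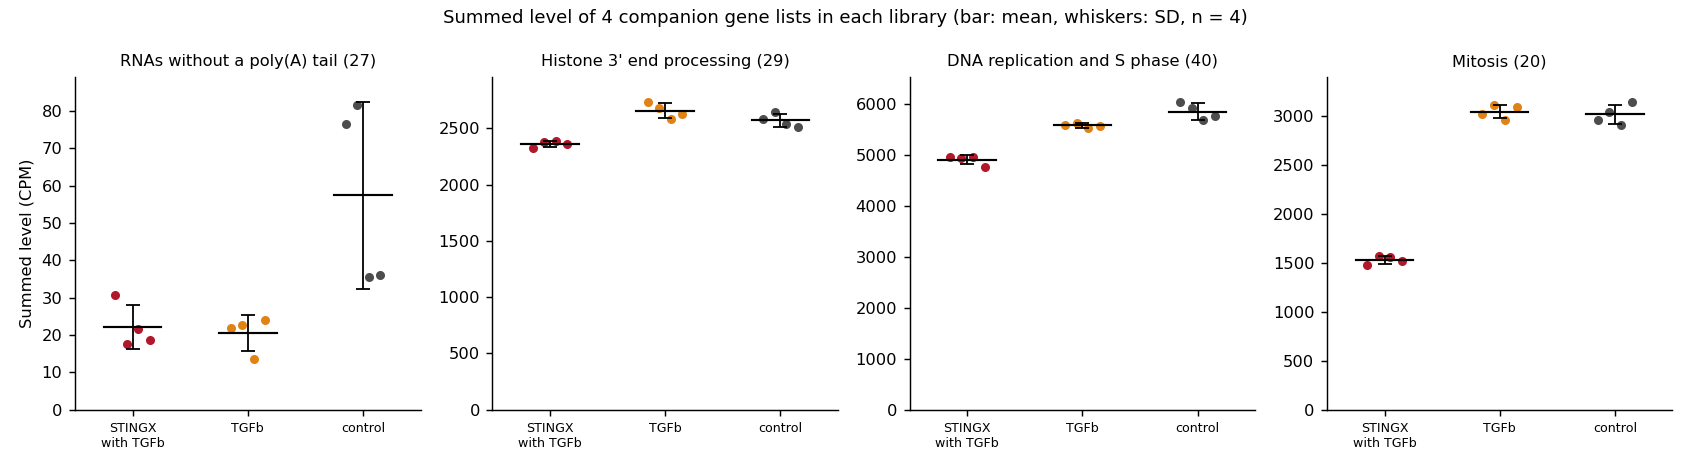
Summed level in CPM (y axes, linear from 0) of 4 companion gene lists in each of 12 libraries, by group (x axis), with the mean as a bar and the SD as whiskers. RNAs without a poly(A) tail lie highest in the control libraries, at 35.6 to 81.5 CPM with 2 of the 4 control libraries far above the others, and the mitosis list lies between 1479 and 1564 CPM in cells given STINGX and TGFb, under both other groups.

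By counts, histone RNA in these libraries came mostly from the variants, at 1784 CPM against 433.9 CPM of replication-dependent RNA in control cells. Per length the classes lay closer, with summed FPKM of 542.6 and 446.8. Of the 67 replication-dependent genes, 5 had no count in any library, 15 were counted but fell below the filter on low counts, and 47 were tested. Of the 12 variants, H1-8 had no count, H1-7 fell below the filter and 10 were tested. Of the members, 35 averaged at least 1 CPM, 25 of them replication-dependent and 10 of them variants. H2BC12 alone held 27.3% of the replication-dependent CPM, and it and the next 3 genes, H1-2, H2AC6 and H2BC21, held 60.1%. The 4 most counted variants held 74.6% of the variant CPM.

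Per length, H2BC12 had the highest mean FPKM of all members, 144.0 over the 12 libraries with a range from 91.9 to 209. H2AZ1 followed at 123 FPKM (73.1 to 159). H2AX averaged 82.2 FPKM (60.9 to 104) and H1-2 56.7 FPKM (27.8 to 87.5). The range of each of these genes overlapped that of the next one named. H2BC12 and H1-2 were the only replication-dependent genes among the first 9, and the next of that class, H2AC19, averaged 13.7 FPKM. FPKM of such short genes depend strongly on the length the annotation gives them.

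The summed replication-dependent RNA was 199.5, 207.9, 196.2 and 192.6 CPM in cells given STINGX and TGFb, 309.9, 306.1, 298.0 and 310.0 CPM in cells given TGFb, and 450.4, 468.7, 395.9 and 420.7 CPM in control cells. The 3 groups did not overlap. The means were 199.0 ± 6.51, 306.0 ± 5.64 and 433.9 ± 32.1 CPM (SD, n = 4 each), which is 0.651 of the TGFb level with STINGX and TGFb, and 0.705 of the control level with TGFb. Without H2BC12 the means were 142.6 ± 6.08, 220.9 ± 2.33 and 319.5 ± 23.0 CPM, in the same order of groups. As a share of the library the class made up 0.0209% ± 0.000578, 0.0292% ± 0.00054 and 0.0432% ± 0.00242 of counts.

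Summed variant RNA differed little between TGFb and control. It was 1141, 1031, 1171 and 1114 CPM in cells given STINGX and TGFb, 1756, 1775, 1599 and 1650 CPM in cells given TGFb, and 2000, 1763, 1636 and 1737 CPM in control cells. The TGFb and control libraries overlapped, and those given STINGX lay below both. The mean of 1114 ± 60.1 CPM with STINGX and TGFb was 0.657 of the 1695 ± 84.3 CPM with TGFb, which in turn was 0.95 of the 1784 ± 154.0 CPM of control cells. Set against 100 CPM of variants, the replication-dependent RNA was 17.9 ± 1.52 CPM with STINGX and TGFb, 18.1 ± 0.751 CPM with TGFb and 24.4 ± 1.67 CPM in control cells. That ratio overlapped between the 2 treated groups, at 16.8 to 20.2 and 17.3 to 18.8, and was 22.5 to 26.6 in control cells. These sums are descriptions and carry no test.

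**Figure D2:**
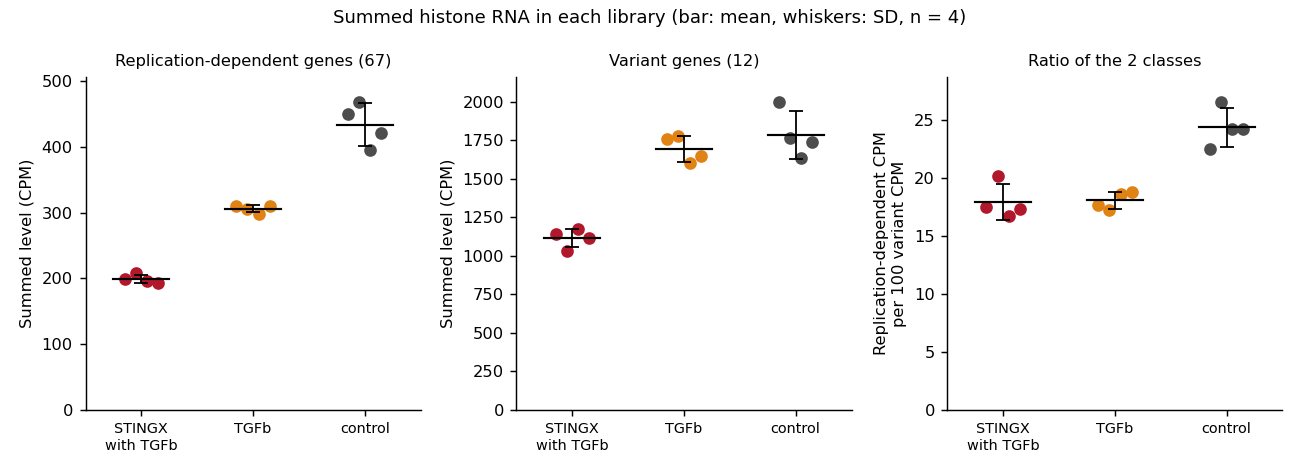
Summed CPM of the replication-dependent genes (left), of the variant genes (middle), and the first per 100 CPM of the second (right), with 1 point per library, the mean as a bar and the SD as whiskers. Replication-dependent RNA averages 199.0, 306.0 and 433.9 CPM in the order of the x axis, while variant RNA averages 1114, 1695 and 1784 CPM.

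With TGFb, 19 of the 47 tested replication-dependent genes fell and none rose against control, by edgeR's quasi-likelihood test at an adjusted p under 0.05. Across all genes tested, 12.8% fell and 13.2% rose, 26.0% in either direction. The median log2 fold change of the 47 was -0.51, against a median of 0.00 over all genes, and 41 of the 47 were below 0. All 19 were among the 25 genes that averaged at least 1 CPM, and none of the 22 tested genes under that level passed. Of the 10 tested variants, 2 fell, H2AJ among them, none rose, and the median was -0.03. At an unadjusted p under 0.05 the number higher was 0 in both classes, and DESeq2 called 0 higher in both.

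Against control replicates 3 and 4 alone, 10 replication-dependent genes fell and none rose, beside 9.74% of all genes that fell. All 10 were among the 19. The median of the 47 was then -0.37, and the 10 were H2BC12, H1-2, H2BC21, H4C8, H4C15, H2AC19, H2AC11, H4C9, H3C6 and H2BC9. Of the variants 1 fell, and their median was 0.07.

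H2BC12 encodes a core histone H2B and lies at chr6:27146361-27146855 in the deposited table. It had 58.5, 58.5, 51.1 and 57.6 CPM in cells given STINGX and TGFb, 85.8, 87.5, 77.6 and 89.3 CPM in cells given TGFb and 125, 121, 103 and 109 CPM in control cells. The groups did not overlap. The mean was 85.05 ± 5.19 CPM with TGFb against 114 ± 10.5 CPM in control cells (SD, n = 4 each), a log2 fold change of -0.43 (SE 0.07, adjusted p = 0.00071). H1-2, a linker histone gene of the chromosome 6 cluster at chr6:26055740-26056470, had 23.3, 24.1, 24.4 and 22.9 CPM in cells given STINGX and TGFb, 50.9, 48.5, 56.4 and 52.4 CPM in cells given TGFb and 77.6, 77.5, 71.5 and 68.4 CPM in control cells. No library of one group reached the range of another, and the log2 fold change with TGFb was -0.50 (SE 0.06, adjusted p = 3.61e-05). H2BC21, an H2B gene of the chromosome 1 cluster at chr1:149884459-149886652, had 11.2, 10.6, 11.1 and 10.4 CPM in cells given STINGX and TGFb, 23.98, 27.1, 24.8 and 26.8 CPM in cells given TGFb and 40.6, 42.5, 40.01 and 39.8 CPM in control cells. It was the replication-dependent gene with the smallest adjusted p with TGFb, at -0.67 (SE 0.06, adjusted p = 2.12e-06).

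Among the other genes of high level, H2BC5, another H2B gene, had 12, 13.8, 9.59 and 10.04 CPM in cells given STINGX and TGFb, 11.5, 13.2, 12.4 and 15.5 CPM in cells given TGFb and 19.2, 17.97, 16.7 and 18.1 CPM in control cells. Its TGFb libraries lay below the control ones and overlapped those given STINGX, and the log2 fold change with TGFb was -0.45 (SE 0.12, adjusted p = 0.0151). Its adjusted p was 0.094 with control replicates 3 and 4 alone. H4C8, an H4 gene, had 11.9, 11.2, 12.1 and 13.3 CPM in cells given STINGX and TGFb, 12.01, 16.1, 13.4 and 13.8 CPM in cells given TGFb and 15.3, 17.5, 18.2 and 18.1 CPM in control cells. Its TGFb and control ranges overlapped, and it fell with TGFb at -0.32 (SE 0.10, adjusted p = 0.0294). Leaving out TGFb replicate 1, 3 or 4 or control replicate 2, 3 or 4 gave adjusted p values over the threshold, up to 0.0874. H2AC6, an H2A gene, had 16.8, 26.7, 24.4 and 14.4 CPM in cells given STINGX and TGFb, 31.9, 20.2, 28.3 and 19.8 CPM in cells given TGFb and 29.2, 49.1, 24.3 and 40.3 CPM in control cells. All 3 of its groups overlapped, and it did not pass with TGFb at -0.51 (SE 0.27, adjusted p = 0.197).

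The largest fall with TGFb among genes of at least 1 CPM was that of H3C6, an H3 gene at chr6:26224199-26227473. It had 4.896, 5.12, 3.76 and 3.54 CPM in cells given STINGX and TGFb, 3.57, 3.96, 2.697 and 3.19 CPM in cells given TGFb and 6.87, 5.93, 6.44 and 6.28 CPM in control cells. The TGFb libraries lay below those of control cells, at -0.92 (SE 0.15, adjusted p = 0.000554), and overlapped those given STINGX. H2BC4 had 2.07, 2.19, 2.13 and 1.92 CPM in cells given STINGX and TGFb, 2.97, 1.998, 1.38 and 2.23 CPM in cells given TGFb and 4.08, 5.01, 2.81 and 3.497 CPM in control cells. It fell with TGFb at -0.83 (SE 0.22, adjusted p = 0.0142), although the TGFb and control ranges overlapped, and did not pass with control replicates 3 and 4 alone (adjusted p = 0.142). H4C15, an H4 gene on chromosome 1, had 5.99, 7.87, 7.24 and 7.81 CPM in cells given STINGX and TGFb, 8.44, 9.05, 8.88 and 8.17 CPM in cells given TGFb and 15.4, 15.3, 12.3 and 14.02 CPM in control cells. It fell with TGFb at -0.72 (SE 0.10, adjusted p = 0.000211), without overlap.

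H2AC19 had 4.85, 3.68, 4.63 and 4.52 CPM in cells given STINGX and TGFb, 9.39, 10.1, 8.13 and 9.65 CPM in cells given TGFb and 14.1, 15.7, 12.7 and 14.2 CPM in control cells. The groups were separate, and it fell with TGFb at -0.60 (SE 0.10, adjusted p = 0.000777). H2AC18, its near-identical neighbour, had 4.83, 3.597, 4.63 and 4.56 CPM in cells given STINGX and TGFb, 9.37, 9.94, 8.07 and 9.65 CPM in cells given TGFb and 13.9, 15.7, 12.5 and 11.3 CPM in control cells. It fell at -0.53 (SE 0.12, adjusted p = 0.00569) with 4 control libraries and had an adjusted p of 0.0673 with control replicates 3 and 4 alone. Every run of 100 bases of the H2AC18 transcript is also in that of H2AC19, and 96.8% of those of H2AC19 are in H2AC18, so how the authors' software divided reads between them is uncertain. The same holds for H3C14 and H3C15, which share every such run, and for H4C14 and H4C15 (94.9% and 97.1%). With the counts of each such pair summed, a setting added after seeing the data, 16 replication-dependent genes or pairs fell with TGFb. Over all genes 2727 of 21325 tested fell there.

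H3C15 had 1.36, 1.43, 1.45 and 1.56 CPM in cells given STINGX and TGFb, 1.17, 1.09, 1.44 and 1.35 CPM in cells given TGFb and 2.75, 2.05, 1.62 and 2.33 CPM in control cells. H3C14 had 1.32, 1.43, 1.45 and 1.65 CPM in cells given STINGX and TGFb, 1.201, 1.09, 1.44 and 1.35 CPM in cells given TGFb and 2.81, 2.13, 1.66 and 1.72 CPM in control cells. Both fell with TGFb, at -0.80 (SE 0.19, adjusted p = 0.00688) and -0.71 (SE 0.20, adjusted p = 0.0207), the control libraries lying above those of both other groups. The call of H3C14 was lost without TGFb replicate 1 or 2 or control replicate 1, with adjusted p values up to 0.0625. With control replicates 3 and 4 alone neither passed, at adjusted p values of 0.0508 and 0.17. H3C15 and H4C15 overlap on opposite strands, as do H3C14 and H4C14, and whether the counting used strand is not given in the sources used here.

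H2AC11, an H2A gene of chromosome 6, had 3.76, 3.35, 3.95 and 2.78 CPM in cells given STINGX and TGFb, 6.72, 4.75, 5.43 and 5.27 CPM in cells given TGFb and 8.49, 8.32, 9.16 and 7.82 CPM in control cells. It fell with TGFb at -0.61 (SE 0.13, adjusted p = 0.00334), without overlap. H2BC9, an H2B gene, had 2.87, 2.66, 2.75 and 2.22 CPM in cells given STINGX and TGFb, 4.88, 3.48, 3.48 and 4.35 CPM in cells given TGFb and 6.63, 5.602, 5.82 and 6.697 CPM in control cells. It fell at -0.61 (SE 0.13, adjusted p = 0.00445), also without overlap. H3C10, an H3 gene, had 1.22, 1.09, 0.959 and 0.918 CPM in cells given STINGX and TGFb, 2.55, 2.41, 2.01 and 2.88 CPM in cells given TGFb and 3.501, 4.78, 3.58 and 2.87 CPM in control cells. It fell at -0.58 (SE 0.17, adjusted p = 0.0273) with ranges that just overlapped, and had an adjusted p of 0.17 with control replicates 3 and 4 alone and of up to 0.0788 without TGFb replicate 1, 2 or 3 or control replicate 2. H3C8, an H3 gene near the lower end of these levels, had 0.439, 0.717, 0.667 and 0.569 CPM in cells given STINGX and TGFb, 0.784, 1.31, 1.301 and 0.731 CPM in cells given TGFb and 1.68, 1.35, 1.58 and 2.15 CPM in control cells. It fell at -0.71 (SE 0.24, adjusted p = 0.0448) and had an adjusted p of 0.0564 with control replicates 3 and 4 alone. It missed the threshold in 8 of 12 fits that left out 1 library, with adjusted p values up to 0.128.

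By family, the genes that fell with TGFb were 1 of 4 tested H1, 3 of 12 H2A, 6 of 13 H2B, 5 of 9 H3 and 4 of 9 H4 genes of the clusters. By position they were 12 of 38 on chromosome 6 and 7 of 9 on chromosome 1. Across all genes tested 12.8% fell, and differences between families, positions or transcript ends were not tested. The 7 on chromosome 1 were H2BC21 and both genes of the near-identical pairs H2AC18 and H2AC19, H3C14 and H3C15, and H4C14 and H4C15. Genes of a pair may share reads, so they are not separate counts. By the end of the most counted annotated transcript, 9 of 16 genes whose model runs beyond the stem-loop fell, 2 of 6 whose model ends at it, 6 of 8 without a match within 2 mismatches and 2 of 17 annotated as the coding part alone. Of the 6, H4C9, H4C14 and H4C15 hold a form with 3 mismatches, and H2BC4 and H2BC5 hold the stem-loop on another model. The genes annotated as the coding part alone had a median level of 0.503 FPKM. It was 1.15 FPKM where the model runs beyond the stem-loop, so the kinds also differed in level. The 2 least counted genes that were tested were H2BC13, with 0.261, 0.108, 0 and 0 CPM in cells given STINGX and TGFb, 0.2001, 0.0683, 0.0765 and 0.231 CPM in cells given TGFb and 0.368, 0.187, 0 and 0.163 CPM in control cells, and H3C1, with 0.219, 0, 0.06504 and 0 CPM in cells given STINGX and TGFb, 0.117, 0.205, 0.306 and 0.231 CPM in cells given TGFb and 0.112, 0.0467, 0.1204 and 0.222 CPM in control cells. Their groups overlapped, and neither passed in any comparison.

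**Figure D3:**
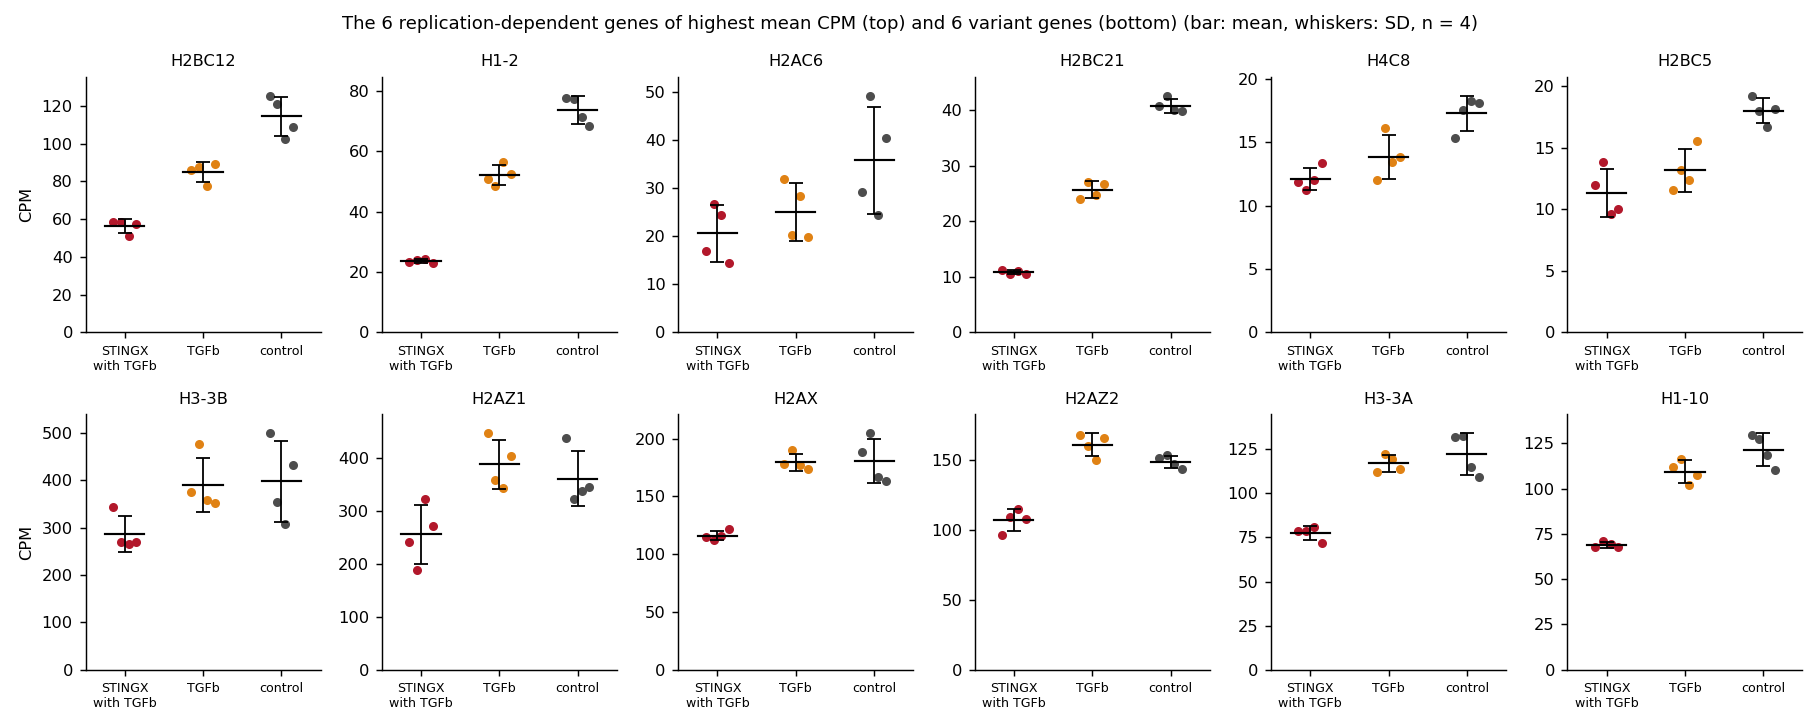
CPM (y axes, linear from 0) of the 6 replication-dependent genes of highest mean level (top row) and of 6 variants of high level (bottom row), with 1 point per library, the mean as a bar and the SD as whiskers. H2BC12, H1-2 and H2BC21 separate all 3 groups, while H2AX, H3-3A and H3-3B with TGFb overlap control.

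H2AJ, an H2A variant, had 17.6, 19.6, 17.9 and 18.9 CPM in cells given STINGX and TGFb, 35.95, 28.2, 33.5 and 30.8 CPM in cells given TGFb and 47.1, 50.4, 42.8 and 32.6 CPM in control cells. It fell at -0.43 (SE 0.12, adjusted p = 0.0184) with a slight overlap, and with control replicates 3 and 4 alone its adjusted p was 0.211, and up to 0.0582 without TGFb replicate 2 or control replicate 1 or 2. The other 8 tested variants did not pass with TGFb in this fit.

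H3-3B and H3-3A both encode the replacement histone H3.3, which is put into chromatin outside replication. H3-3B had 344, 269, 265 and 269.6 CPM in cells given STINGX and TGFb, 375, 476, 358 and 352 CPM in cells given TGFb and 499, 354, 307 and 432 CPM in control cells. Its TGFb and control ranges overlapped, at -0.03 (SE 0.16, adjusted p = 0.924). H3-3A had 78.5, 78.4, 80.8 and 71.9 CPM in cells given STINGX and TGFb, 112, 122, 119.7 and 114 CPM in cells given TGFb and 132, 132, 115 and 109 CPM in control cells. Its TGFb and control ranges overlapped too, at -0.06 (SE 0.07, adjusted p = 0.559). H2AZ1 and H2AZ2 encode the H2A.Z variant found at promoters. H2AZ1 had 241, 189, 322 and 272 CPM in cells given STINGX and TGFb, 447, 358, 344 and 404 CPM in cells given TGFb and 438, 323, 339 and 345 CPM in control cells, and H2AZ2 had 96.9, 109, 115 and 108 CPM in cells given STINGX and TGFb, 168, 160.0, 150.0 and 166 CPM in cells given TGFb and 152, 154, 147 and 144 CPM in control cells. Both overlapped between TGFb and control, with log2 fold changes of 0.10 (adjusted p = 0.691) and 0.11 (adjusted p = 0.168) by edgeR. H2AX, the variant phosphorylated at DNA breaks, had 115, 112, 115 and 121 CPM in cells given STINGX and TGFb, 178, 190.0, 177 and 173 CPM in cells given TGFb and 188, 204, 167 and 164 CPM in control cells, and a log2 fold change with TGFb of -0.01 (SE 0.07, adjusted p = 0.934). H1-10, a linker variant, had 67.9, 71.2, 69.3 and 67.7 CPM in cells given STINGX and TGFb, 112, 116, 102 and 108 CPM in cells given TGFb and 129.7, 128, 119 and 110.2 CPM in control cells. It stood at -0.15 (SE 0.06, adjusted p = 0.0722) with TGFb, with overlap, and passed as lower in 7 of 13 other settings (smallest adjusted p = 0.00564, with library size alone), the replicate block among them, and without control replicate 4 (0.0177). With control replicates 3 and 4 alone it did not pass, at -0.07 (adjusted p = 0.48).

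With STINGX and TGFb, set against TGFb, 13 of the 47 tested replication-dependent genes fell and none rose, and 7 of the 10 tested variants fell and none rose. Across all genes tested 13.8% fell and 13.7% rose, 27.5% in either direction, by the same edgeR test. The median log2 fold change was -0.55 for the replication-dependent genes and -0.60 for the variants, against 0.01 over all genes. At an unadjusted p under 0.05, 1 gene of each class was higher, and DESeq2 called 0 higher in both. The comparison shares its 4 TGFb libraries with the one against control. Scaling by library size alone moved the median of all genes to 0.147 on the log2 scale and the split of all calls to 4997 higher and 1890 lower, against 2931 higher and 2933 lower. Under that scaling 13 replication-dependent genes and 7 variants were lower, and 1 replication-dependent gene, H3C6, and 1 variant were higher.

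H2BC21 fell furthest among the genes of at least 1 CPM, to 10.8 ± 0.367 CPM with STINGX and TGFb against 25.6 ± 1.51 CPM with TGFb (SD, n = 4 each), at -1.25 (SE 0.06, adjusted p = 1.1e-08). H3C10 fell to 1.05 ± 0.137 CPM against 2.46 ± 0.363 CPM, at -1.22 (SE 0.21, adjusted p = 0.000838). H1-2 fell to 23.7 ± 0.677 CPM against 52.04 ± 3.29 CPM, at -1.14 (SE 0.06, adjusted p = 2.78e-08). In all 3 the libraries given STINGX lay below every TGFb library, as listed above. H2AC19 and H2AC18 fell by similar amounts, at -1.08 (SE 0.11, adjusted p = 1.33e-05) and -1.08 (SE 0.13, adjusted p = 5.13e-05). H4C9, an H4 gene, had 4.09, 5.39, 4.42 and 4.84 CPM in cells given STINGX and TGFb, 8.07, 8.11, 7.31 and 7.02 CPM in cells given TGFb and 11.3, 12.3, 10.4 and 9.75 CPM in control cells. It fell in both steps without overlap, at -0.52 (SE 0.11, adjusted p = 0.00299) with TGFb and -0.70 (SE 0.11, adjusted p = 0.000528) with STINGX and TGFb. H2AC11 stood at -0.68 (SE 0.14, adjusted p = 0.00264), H2BC9 at -0.63 (SE 0.15, adjusted p = 0.00676) and H2BC12 at -0.59 (SE 0.07, adjusted p = 5.1e-05), all 3 without overlap.

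Other replication-dependent genes that fell with TGFb did not pass between STINGX with TGFb and TGFb. H3C6 stood at 0.37 (SE 0.16, adjusted p = 0.103), the opposite sign, and passed as higher in 4 of the 13 other settings tried. H4C15 stood at -0.26 (SE 0.11, adjusted p = 0.105), H2BC5 at -0.21 (SE 0.12, adjusted p = 0.258), H4C8 at -0.19 (SE 0.10, adjusted p = 0.182) and H2BC4 at -0.06 (SE 0.24, adjusted p = 0.896), the last with a sign that turns under scaling by library size alone. H2AC6, which had not passed with TGFb, stood at -0.28 (SE 0.27, adjusted p = 0.494). Of the 25 replication-dependent genes of at least 1 CPM, 10 fell and 15 did not pass. Of the 22 tested genes under 1 CPM, 3 fell, beside 13.8% of all genes tested. H3C2, an H3 gene, had 0, 0, 0 and 3 counts in cells given STINGX and TGFb, 8, 11, 4 and 7 counts with TGFb and 18, 58, 6 and 34 counts in control cells. It did not pass between STINGX with TGFb and TGFb (adjusted p = 0.11 by edgeR), and no fold is given at such counts.

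The variants that fell included H2AJ, H1-10, H2AX, H3-3A, H2AZ2 and H2AZ1. H2AJ stood at -0.79 (SE 0.12, adjusted p = 0.000346) and H1-10 at -0.66 (SE 0.06, adjusted p = 2.33e-06). H2AX fell to 116 ± 3.95 CPM with STINGX and TGFb against 179.5 ± 7.21 CPM with TGFb (SD, n = 4 each), at -0.63 (SE 0.07, adjusted p = 1.25e-05). H3-3A stood at -0.60 (SE 0.07, adjusted p = 2.33e-05), H2AZ2 at -0.59 (SE 0.06, adjusted p = 5.08e-06) and H2AZ1 at -0.60 (SE 0.16, adjusted p = 0.0146). H3-3B did not pass, at -0.44 (SE 0.16, adjusted p = 0.0574), although all 4 libraries given STINGX lay below the TGFb ones. It passed as lower in 4 of 13 other settings and 3 of 12 fits without 1 library (smallest adjusted p = 0.0196). H3-5, an H3.3-like gene, had 2.02, 2.69, 2.26 and 1.603 CPM in cells given STINGX and TGFb, 3.48, 2.78, 2.96 and 2.19 CPM in cells given TGFb and 3.58, 2.41, 2.26 and 3.56 CPM in control cells, and did not pass at -0.42 (SE 0.22, adjusted p = 0.19). H3-2, which encodes an H3 protein of the replication-dependent kind and is counted here as a variant by its name, had 11.2, 12.1, 15.1 and 12.1 CPM in cells given STINGX and TGFb, 10.2, 11.97, 9.45 and 9.96 CPM in cells given TGFb and 8.76, 9.71, 9.6 and 8.86 CPM in control cells. It stood at 0.27 (SE 0.11, adjusted p = 0.0754), with overlap.

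**Figure D4:**
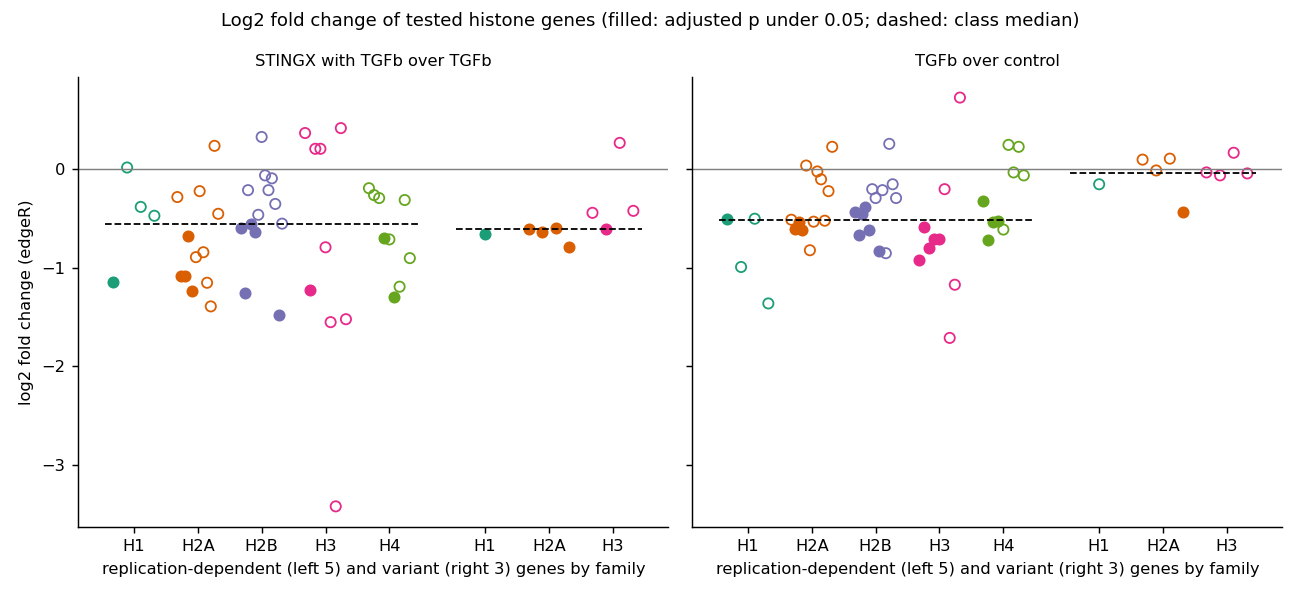
Log2 fold change (y axis) of 56 of the 57 tested histone genes by class and family (x axis, genes of a family spread sideways from most to least counted) for STINGX with TGFb over TGFb (left) and TGFb over control (right). Filled points passed an adjusted p under 0.05 and all lie below 0, and dashed lines are class medians, at -0.55 and -0.60 on the left and -0.51 and -0.03 on the right.

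Set against control, STINGX with TGFb had 29 of 47 replication-dependent genes lower and none higher, beside 17.0% of all genes lower and 17.2% higher (34.2% in either direction). At an unadjusted p under 0.05 the number higher was 0, and DESeq2 called 0 higher. The median was -0.96, against 0.00 over all genes. With control replicates 3 and 4 alone, 20 were lower, beside 13.1% of all genes. Of the 10 variants, 8 were lower and 1, H3-2, was higher, at 0.45 (SE 0.11, adjusted p = 0.00548), and the median was -0.57. H3-2 encodes an H3 protein of the replication-dependent kind, and counted with that class it would be 1 higher gene there. H2BC21 stood at -1.91 (SE 0.06, adjusted p = 3.1e-10) and H1-2 at -1.64 (SE 0.06, adjusted p = 1.14e-09). H2AC6 stood at -0.80 (SE 0.27, adjusted p = 0.0391), but its groups overlapped and the adjusted p reached 0.114 without control replicate 2 and 0.168 with control replicates 3 and 4 alone.

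The deposited transcript estimates show which annotated form the counts were given to in the genes with more than 1 model. In H2BC5 95.5% of counts were on a spliced transcript of 2 exons without the stem-loop, and the 1-exon form that ends at it held 5.58% ± 3.25, 4.24% ± 1.95 and 4.11% ± 1.31 (SD, n = 4) in cells given STINGX and TGFb, TGFb and control cells. In H3C6 98.3% of counts were on a transcript that runs 1862 bases beyond the stem-loop. H4C8 gave its short form a larger share, 30.3% ± 2.62 with STINGX and TGFb, 24.3% ± 0.588 with TGFb and 23.2% ± 3.20 in control cells. The rest of H4C8 was on 2 transcripts that run 630 and 1655 bases beyond. H2AC6 had 72.9% on one that runs 1128 bases beyond, and H2BC4 had 94.7% on a spliced transcript without the stem-loop.

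Over all replication-dependent genes, 29.2% ± 2.92, 27.1% ± 2.10 and 28.8% ± 2.35 of counts were on transcripts that run beyond the stem-loop, in cells given STINGX and TGFb, TGFb and control cells. Those that end at it held 7.30% ± 0.631, 8.27% ± 0.603 and 8.23% ± 0.201. Those without a match in GENCODE 29, its coding-part models of H2BC12 and H1-2 included, held 63.5% ± 2.95, 64.6% ± 1.56 and 63.0% ± 2.34. The deposited spans of H2BC12 and H1-2 are longer than those models, so this class may hold RNA that includes a stem-loop. A gene with 1 model gives all its counts to it, whatever form the RNA had, so these shares lean on the annotation. Replication-dependent counts on a model that ends at the stem-loop do not show that the RNA lacked a tail.

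**Figure D5:**
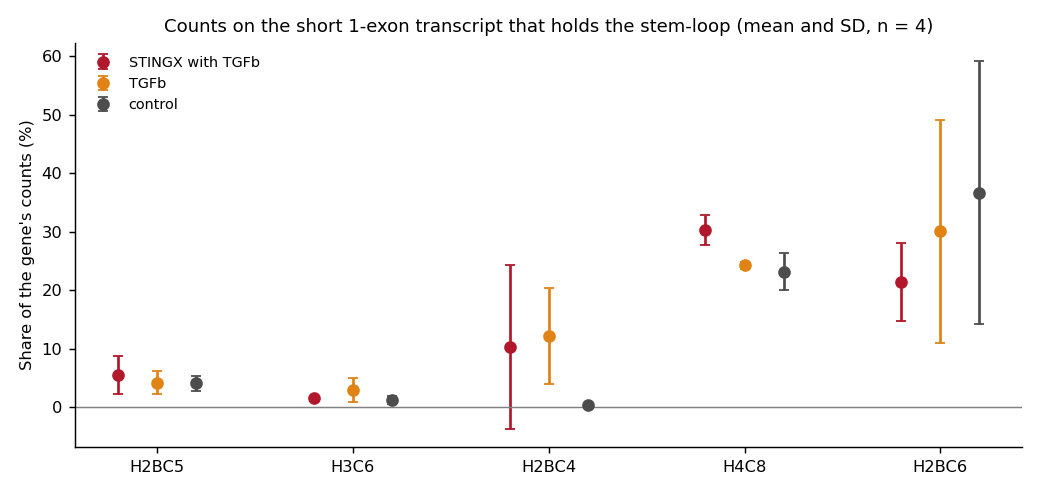
Share of a gene's counts, in percent (y axis), on its short 1-exon transcript that holds the stem-loop, for 5 replication-dependent genes with several models (x axis), as mean and SD of 4 libraries per group. H2BC5, H3C6 and H2BC4 give the short form few counts in every group, H4C8 gives it 23.2% to 30.3%, and the bars of H2BC6, a gene with few counts, are wide.

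Of the 29 genes of stem-loop 3′ end processing, 4 rose and 3 fell with TGFb against control, with a median log2 fold change of 0.05. Across all genes tested 13.2% rose and 12.8% fell. Against control replicates 3 and 4 alone 7 rose and 1 fell, beside 10.5% of all genes that rose and 9.74% that fell. With STINGX and TGFb against TGFb 1 rose and 9 fell, with a median of -0.06, beside 13.7% of all genes that rose and 13.8% that fell. SLBP had 82.7, 94.9, 90.7 and 93.5 CPM in cells given STINGX and TGFb, 98.8, 98.4, 78.1 and 91.7 CPM in cells given TGFb and 113, 115, 105 and 89.4 CPM in control cells. Its groups overlapped, and it did not pass with TGFb, at -0.20 (SE 0.09, adjusted p = 0.128), or with STINGX and TGFb, at -0.02 (SE 0.09, adjusted p = 0.896), a sign that turns under scaling by library size alone. SLBP passed as lower with TGFb in 3 of 13 other settings and 1 of 12 fits without 1 library (smallest adjusted p = 0.0283). LSM11, a protein of the U7 particle that helps cut histone RNA, rose with TGFb to 13.96 ± 0.569 CPM against 9.98 ± 0.659 CPM in control cells (SD, n = 4 each), at 0.48 (SE 0.08, adjusted p = 0.000605). Its partner LSM10 fell with TGFb at -0.40 (SE 0.11, adjusted p = 0.0184), but did not pass (adjusted p = 0.169) with control replicates 3 and 4 alone. ZNF473, which binds U7 and SLBP-bound RNA, had 44.9, 42.5, 45.1 and 45.1 CPM in cells given STINGX and TGFb, 37.02, 38.8, 34.7 and 35.9 CPM in cells given TGFb and 25.6, 30.8, 30.6 and 31.3 CPM in control cells. It rose in both steps, at 0.31 (SE 0.07, adjusted p = 0.00446) and 0.28 (SE 0.07, adjusted p = 0.0075). CSTF1 and CPSF4, parts of the general 3′ end machinery, fell with TGFb at -0.33 (SE 0.06, adjusted p = 0.00087) and -0.32 (SE 0.09, adjusted p = 0.0227), of which CPSF4 did not pass with control replicates 3 and 4 alone (adjusted p = 0.128). The Sm proteins SNRPB, SNRPD3 and SNRPF fell with STINGX and TGFb, by log2 fold changes of -0.46, -0.46 and -0.37 (SNRPF missed the threshold in 4 of 13 other settings), as did the cap-binding protein gene NCBP1 at -0.34 (SE 0.04, adjusted p = 2.74e-05).

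Of the 17 genes of histone gene transcription, 3 rose and 1 fell with TGFb, and 1 rose and 3 fell with STINGX and TGFb against TGFb, with medians of 0.11 and -0.11. The shares of all genes that rose and fell were 13.2% and 12.8% with TGFb, and 13.7% and 13.8% with STINGX and TGFb against TGFb. Against control replicates 3 and 4 alone 2 rose with TGFb and none fell, beside 10.5% and 9.74% of all genes. NPAT, the coactivator at histone gene clusters, had 34.5, 36.01, 46.4 and 34.6 CPM in cells given STINGX and TGFb, 45.5, 34.9, 40.3 and 43.2 CPM in cells given TGFb and 28.7, 30.2, 30.9 and 38.9 CPM in control cells. It stood at 0.35 (SE 0.12, adjusted p = 0.0564) with TGFb and -0.11 (SE 0.12, adjusted p = 0.547) with STINGX and TGFb, where the sign turns under scaling by library size alone. NPAT passed as higher with TGFb in 1 of 13 other settings and 3 of 12 fits without 1 library (smallest adjusted p = 0.015). CASP8AP2 (FLASH), which holds the histone locus body together, stood at 0.20 (SE 0.07, adjusted p = 0.0699) and 0.11 (SE 0.07, adjusted p = 0.313). The first passed in 1 of 12 fits without 1 library (0.00939), the second in 3 of 13 other settings (smallest adjusted p = 0.0334). NFYA, a subunit of the CCAAT-binding factor, rose with TGFb to 50.7 ± 2.06 CPM against 36.4 ± 1.88 CPM in control cells, at 0.48 (SE 0.06, adjusted p = 2.96e-05). CDC25A, the phosphatase that activates CDK2, rose in both steps, at 0.24 (SE 0.07, adjusted p = 0.0161) and 0.24 (SE 0.06, adjusted p = 0.0142), the first of which missed the threshold in 4 of 13 other settings. POU2F1 (OCT1), which binds the octamer, stood just past the threshold with TGFb at 0.24 (SE 0.08, adjusted p = 0.0493), a call lost in 9 of 13 other settings and in 11 of 12 fits that left out 1 library (adjusted p up to 0.357). It fell with STINGX and TGFb at -0.36 (SE 0.08, adjusted p = 0.00567), which was lost in 4 of 13. GAPDH, which with LDHA has been found in the OCT1 coactivator of H2B genes, fell with TGFb at -0.35 (SE 0.09, adjusted p = 0.0111), though not with control replicates 3 and 4 alone (adjusted p = 0.151), and LDHA fell with STINGX and TGFb at -0.93 (SE 0.09, adjusted p = 6.58e-06).

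Of the 33 histone chaperone and acetyltransferase genes, 4 rose and 3 fell with TGFb, and 2 rose and 10 fell with STINGX and TGFb, with medians of 0.04 and -0.14. The shares of all genes that rose and fell were 13.2% and 12.8% with TGFb, and 13.7% and 13.8% with STINGX and TGFb against TGFb. Against control replicates 3 and 4 alone 5 rose with TGFb and none fell, beside 10.5% and 9.74% of all genes. ASF1B, a chaperone of new H3 and H4, was 70.01 ± 2.99 CPM with STINGX and TGFb, 81 ± 2.38 CPM with TGFb and 98.5 ± 11.5 CPM in control cells (SD, n = 4 each). It fell in both steps, at -0.28 (SE 0.07, adjusted p = 0.0114) and -0.21 (SE 0.07, adjusted p = 0.0474), of which the first did not pass with control replicates 3 and 4 alone (adjusted p = 0.0947) and the second missed the threshold in 6 of 13 other settings. The second call was also lost in 10 of 12 fits that left out 1 library (adjusted p up to 0.119). CHAF1A, the large subunit of the chromatin assembly factor, did not pass in either, at 0.10 (SE 0.04, adjusted p = 0.0622) and -0.04 (SE 0.04, adjusted p = 0.464). The first passed in 1 of 13 other settings (0.0369), and the second has a sign that turns under scaling by library size alone. NAP1L1, an H2A and H2B chaperone, rose with TGFb at 0.31 (SE 0.05, adjusted p = 0.000675) and fell with STINGX and TGFb at -0.48 (SE 0.05, adjusted p = 1.94e-05). ANP32E, which removes H2A.Z, fell with STINGX and TGFb at -0.80 (SE 0.07, adjusted p = 3.38e-06). SSRP1, of the FACT complex, and SET fell too, by log2 fold changes of -0.40 and -0.35. RBBP7, a histone-binding subunit, fell with TGFb at -0.38 (SE 0.11, adjusted p = 0.0221), while the chromatin genes UBN2 and EP400 rose by 0.30 and 0.30. With control replicates 3 and 4 alone RBBP7 (0.18) and UBN2 (0.117) did not pass. EP400 missed the threshold in 1 of 13 other settings (adjusted p up to 0.0901).

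Genes of DNA replication and of mitosis are given beside the histone genes, and their part in these results was not tested. With TGFb against control, 5 of 40 S-phase genes rose and 6 fell, with a median of -0.05, and 2 of 20 mitosis genes rose and none fell. Across all genes 13.2% rose and 12.8% fell. Against control replicates 3 and 4 alone these were 3 and 5 S-phase genes, and 1 mitosis gene and none, beside 10.5% and 9.74% of all genes. With STINGX and TGFb against TGFb, 2 S-phase genes rose and 16 fell, with a median of -0.15, and 19 of the 20 mitosis genes fell, with a median of -0.87. Of all genes 13.7% rose and 13.8% fell there. CENPA, the centromeric H3 variant, which the naming rule leaves out, stood at -0.07 (SE 0.08, adjusted p = 0.582) with TGFb and -0.81 (SE 0.09, adjusted p = 1.87e-05) with STINGX and TGFb. H2AW, another histone gene outside it, had 3.19, 2.95, 2.504 and 3.24 CPM in cells given STINGX and TGFb, 4.57, 5.65, 4.92 and 5.02 CPM in cells given TGFb and 7.896, 8.85, 7.58 and 6.58 CPM in control cells, and fell in both steps, at -0.62 (SE 0.12, adjusted p = 0.00197) and -0.76 (SE 0.13, adjusted p = 0.00089). Of the 7 such genes tested, H2AW was the only one that fell with TGFb, and 3 fell with STINGX and TGFb.

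RNAs without a poly(A) tail moved in the same direction as the replication-dependent genes with TGFb and are given as a measure beside them. Of 8 tested, 4 fell and none rose, with a median log2 fold change of -1.46, beside 12.8% of all genes that fell and 13.2% that rose. RN7SK, the RNA that keeps the elongation factor P-TEFb inactive, had 5.801, 4.18, 3.94 and 3.63 CPM in cells given STINGX and TGFb, 4.25, 3.86, 2.33 and 1.98 CPM in cells given TGFb and 17.2, 17.6, 5.402 and 6.74 CPM in control cells. It fell at -1.89 (SE 0.43, adjusted p = 0.0066). RN7SL1, the RNA of the signal recognition particle, had 12.2, 6.07, 7.54 and 6.91 CPM in cells given STINGX and TGFb, 9.25, 8.76, 9.47 and 11.2 CPM in cells given TGFb and 28.4, 31.1, 14.5 and 14.4 CPM in control cells. It fell at -1.19 (SE 0.29, adjusted p = 0.0107), and its copy RN7SL2 at -1.73 (SE 0.56, adjusted p = 0.0434), a call lost in 8 of 13 other settings and in 8 of 12 fits that left out 1 library. With control replicates 3 and 4 alone neither RN7SL1 (0.104) nor RN7SL2 (0.304) passed. RPPH1, the RNA of RNase P, was the other that fell. With control replicates 3 and 4 alone 1 of 9 fell, with a median of -0.58, beside 9.74% of all genes that fell. Between STINGX with TGFb and TGFb none of the 8 passed by edgeR, 0 had an unadjusted p under 0.05, DESeq2 called 0, and the median was -0.05, while 13 replication-dependent genes fell. The part of these RNAs in the fall of replication-dependent RNA with TGFb was not tested.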

How the data were processed

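RNA was sequenced from 12 LX2 libraries after purification on oligo(dT) beads, as paired reads of a stranded kit, per the labels' protocols. Cutadapt, HISAT2, StringTie and edgeR with the build GRCh38 are named in the submitters' processing notes, without versions or roles. The authors deposited estimated counts per gene and per transcript, which were used as whole numbers. They also deposited FPKM values, which depend on the annotated gene length. Whether counting used strand or divided reads among near-identical genes is not given in the sources used here.

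Genes were tested on the gene counts with edgeR 4.0.16 in R 4.3.3 (quasi-likelihood test, TMM scaling, all 12 libraries, 9 residual degrees of freedom, Benjamini-Hochberg adjustment over all genes tested, threshold 0.05). filterByExpr (minimum count 10, minimum total 15) kept 21328 of 60612 genes. The common dispersion of 0.0782 corresponds to a coefficient of variation of 28%. The fit was tested on simulated data. DESeq2 1.42.0, limma 3.58.1 on log2(FPKM + 1) and log2(FPKM + 0.1), other scalings and filters, a replicate block and leaving out each library were tried as alternatives. Transcript ends were read from GENCODE 29 (GRCh38), with ends within 100 bases of the stem-loop counted as ending at it, and promoters from RefSeq. The members and gene lists were chosen with earlier results of these data known. Members were described in full where they had the highest level (6 per class), where they passed and averaged 1 CPM or more (up to 12 per comparison, by size of change), or where they were the 2 least counted. The values of 1 member are not reported here, although sums, counts and medians include it. List genes were named by size of change among those that passed, up to 4 per list and comparison. The cell type markers fixed for the check of identity were those of stellate cells, hepatocytes, macrophages and leukocytes, endothelial cells (6 genes, 2.75 to 6.46 CPM summed) and cholangiocytes (5 genes, 29.4 to 65.1 CPM summed).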

Additional observations from a re-analysis of the deposited data

Results flagged for a closer look

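Among 243 groups of 4 libraries examined for the genes and sums named here, 16 held 1 library that lay far from the other 3, where chance alone gives about 1 in 20. H2BC12 was lower in STINGX with TGFb replicate 3, at 51.1 CPM, than in the other 3 libraries of that group (57.6 to 58.6 CPM). H3-3B was higher in STINGX with TGFb replicate 1, at 344 CPM against 265 to 269.6 CPM. Among regulators of histone genes, NPAT was higher in STINGX with TGFb replicate 3 (46.4 CPM against 34.5 to 36.0) and POU2F1 in TGFb replicate 1 (28.4 CPM against 22.6 to 23.4). ZNF473 was lower in STINGX with TGFb replicate 2 (42.5 CPM against 44.9 to 45.1) and in control replicate 1 (25.6 CPM against 30.6 to 31.3). NCBP1 was lower in TGFb replicate 3 (107.8 CPM against 113.9 to 115). CDC25A was higher in control replicate 2 (32.1 CPM against 29.8 to 30.1), and LDHA in STINGX with TGFb replicate 2 (443 CPM against 418 to 419.5).

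Among chaperones, CHAF1A was lower in STINGX with TGFb replicate 4 (121 CPM against 127 to 127.7), RBBP7 was higher there (183 CPM against 149 to 155), SSRP1 was higher in TGFb replicate 1 (589 CPM against 562.5 to 565.5), and SET was higher in control replicate 1 (485.5 CPM against 455 to 458). RFC2 was higher in STINGX with TGFb replicate 1 (77.6 CPM against 56.96 to 59.8), and RRM2 in control replicate 3 (168 CPM against 115 to 120.2). NUSAP1 was 74.3 CPM in control replicate 1 against 185 to 190.1 CPM in the other 3 control libraries.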

How the results depend on the processing

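With TGFb, 10 replication-dependent genes fell with control replicates 3 and 4 alone, against 19 with all 4, and 14 to 18 when single libraries were left out. For variants, 1 fell with control replicates 3 and 4 alone, and 1 to 3 with single libraries left out (1 without TGFb replicate 2, control replicate 1 or control replicate 2). The STINGX with TGFb over TGFb ratio of summed replication-dependent RNA, 0.651, was 0.717 with library size alone and 0.687 from FPKM, and that of variants, 0.657, was 0.725 with library size alone. With up to 3 mismatches the share of counts beyond the stem-loop was 38.2%, 34.8% and 37.0% in cells given STINGX and TGFb, TGFb and control cells. Of 131 named gene results past the threshold, 92 stayed past it in each of the 25 alternatives that tested them. The cause was not tested for any of these. Signs turned for genes that did not pass. Between STINGX with TGFb and TGFb, the log2 fold change with library size alone, FPKM + 1, FPKM + 0.1 and FPKM + 1 without a filter was 0.086, 0.09, 0.141 and 0.09 for H2BC4, 0.121, 0.118, 0.121 and 0.118 for SLBP, 0.026, 0.017, 0.02 and 0.017 for NPAT, and 0.099, 0.092, 0.096 and 0.092 for CHAF1A. With control replicates 3 and 4 alone, TGFb against control gave 0.075 for H3-3B, 0.115 for H2AX, 0.059 for H3-3A and 0.788 for H2BC13, and STINGX with TGFb against control gave 0.238 for H2BC13. With single libraries left out, the log2 fold change of TGFb against control ran from -0.138 to 0.099 for H3-3B, from -0.056 to 0.054 for H2AX and from -0.716 to 0.302 for H2BC13, and that of STINGX with TGFb against TGFb from -0.211 to 0.152 for H2BC4 and from -0.09 to 0.021 for SLBP. The same replicate numbers did not pair the libraries (correlations of deviations from -0.0153 to 0.0636, none of 12 over 0.1). With the replicate block, 17, 14 and 26 replication-dependent genes and 3, 8 and 9 variants passed, in either direction, in TGFb against control, STINGX with TGFb against TGFb, and STINGX with TGFb against control. Of 21328 genes tested there, 2723 rose and 2593 fell, 2777 rose and 2870 fell, and 3617 rose and 3499 fell, in that order. The size of change detectable in members under 1 CPM was not tested.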
